A study of Rattus norvegicus with 2 samples.

Results

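The circular RNAs (circRNAs) of the gene Gigyf2 were examined in rat spinal cord RNA from a bone cancer pain (BCP) group and a sham group. The members were the rows of the deposited circRNA table whose gene field names Gigyf2, a gene selected on its read counts in these libraries. They numbered 16 of 11599 rows, and 1 of the 16 held nearly all of the reads. In the BCP group, live Walker 256 cells, a rat mammary carcinoma line, were placed in the marrow of the tibia. The sham group underwent the same operation with cells that had been boiled for 20 min. Tissue was taken 21 days later, with 3 animals described per group. The labels give no age, and they name SD rats only for the passage of the tumour cells. The tissue label of both samples reads spinal cord cells, and their source label names the injected line. RNA of both groups was depleted of ribosomal RNA and digested with RNase R, which degrades linear RNA and spares closed circles. Each group gave 1 library. No difference below has a replicate check, and each comparison is of these 2 libraries and not of the conditions.

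A circRNA arises when the splice site at the end of an exon is joined back to the splice site at the start of the same or an earlier exon. It is counted through reads that cross this back-splice junction, and 1 gene can give many circRNAs that differ in the pair of sites joined. Gigyf2 encodes a GYF domain protein that was named for its binding to the adaptor GRB10. The protein works with the cap-binding protein 4EHP (gene Eif4e2) to repress the translation of mRNAs, and it is brought to its targets by ZNF598 at collided ribosomes, by tristetraprolin and by the microRNA machinery. In mice, loss of 1 Gigyf2 allele has been linked to motor decline with age. Whether a Gigyf2 circRNA shares any of these roles is not addressed by counts of junction reads.

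Back-splice reads summed to 113033 in sham and 78836 in BCP. No count of 1 occurs in the table, whose smallest entry above 0 is 2. An entry of 0 can therefore hide a rare circRNA. At an equal share of the library, a circRNA has fewer reads in BCP, where the back-splice total was lower. The cause of the lower total was not tested. Levels are given as raw reads or as reads per 1000000 back-splice reads (CPM). A junction is a single point, so CPM were not divided by length. All intervals are exact 95% intervals that cover the counting error of independent reads only. All 8 neuronal marker genes hosted circRNAs (1323 reads in sham and 803 in BCP). Most of these reads came from Rims2 (879 and 548) and Rims1 (281 and 123). None of the 4 skeletal muscle and 4 mammary carcinoma markers hosted any circRNA. A marker gene without a listed circRNA does not show that its cell type was absent. Of the astrocyte markers 1 of 5 was listed (5 and 3 reads), with no circRNA of Gfap or Aqp4. Oligodendrocyte markers (3 of 6 listed) had 11 reads in sham and 45 in BCP, microglia and blood markers (2 of 6) had 13 and 43, and ganglion neuron and Schwann cell markers (1 of 5) had 0 and 17. The part of these differences in the Gigyf2 values was not tested.

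The dominant Gigyf2 circRNA joined position 94481167 of chromosome 9 back to position 94463647 (build rn6), a genomic span of 17521 bp. Its reads numbered 6836 in sham and 4806 in BCP. These are 60478 CPM in sham (59095 to 61883) and 60962 CPM in BCP (59302 to 62655), so the levels lay within each other's intervals. The BCP over sham ratio was 1.01 (0.971 to 1.05). This ratio depends on the scaling. Median-of-ratios and TMM scaling lowered all log2 ratios by 0.10 and 0.12, and the ratio of the dominant circRNA became 0.937 (0.903 to 0.973) and 0.929 (0.896 to 0.965). The dominant circRNA was chosen because it had the most reads, so its rank is a description. The next circRNA of any host in the table, of Ssbp2, had 2842 and 1708 reads.

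The 15 minor Gigyf2 circRNAs together had 347 reads in sham and 188 in BCP. For every 1000 reads of the dominant circRNA there were 50.8 minor reads in sham and 39.1 in BCP. The minor circRNAs ranged from 2 to 153 reads over both libraries. Of the 15, 8 were listed in both libraries, 5 in sham alone (25 reads) and 2 in BCP alone (6 reads). Of all circRNAs in the table, 41.2% were listed in both libraries, 36.4% in sham alone and 22.4% in BCP alone. By reads over both libraries, the most abundant minor circRNA ranked 146 of all circRNAs in the table, ahead of most circRNAs of other genes. Of the whole table, 69.8% had under 10 reads over both libraries.

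**Figure D1:**
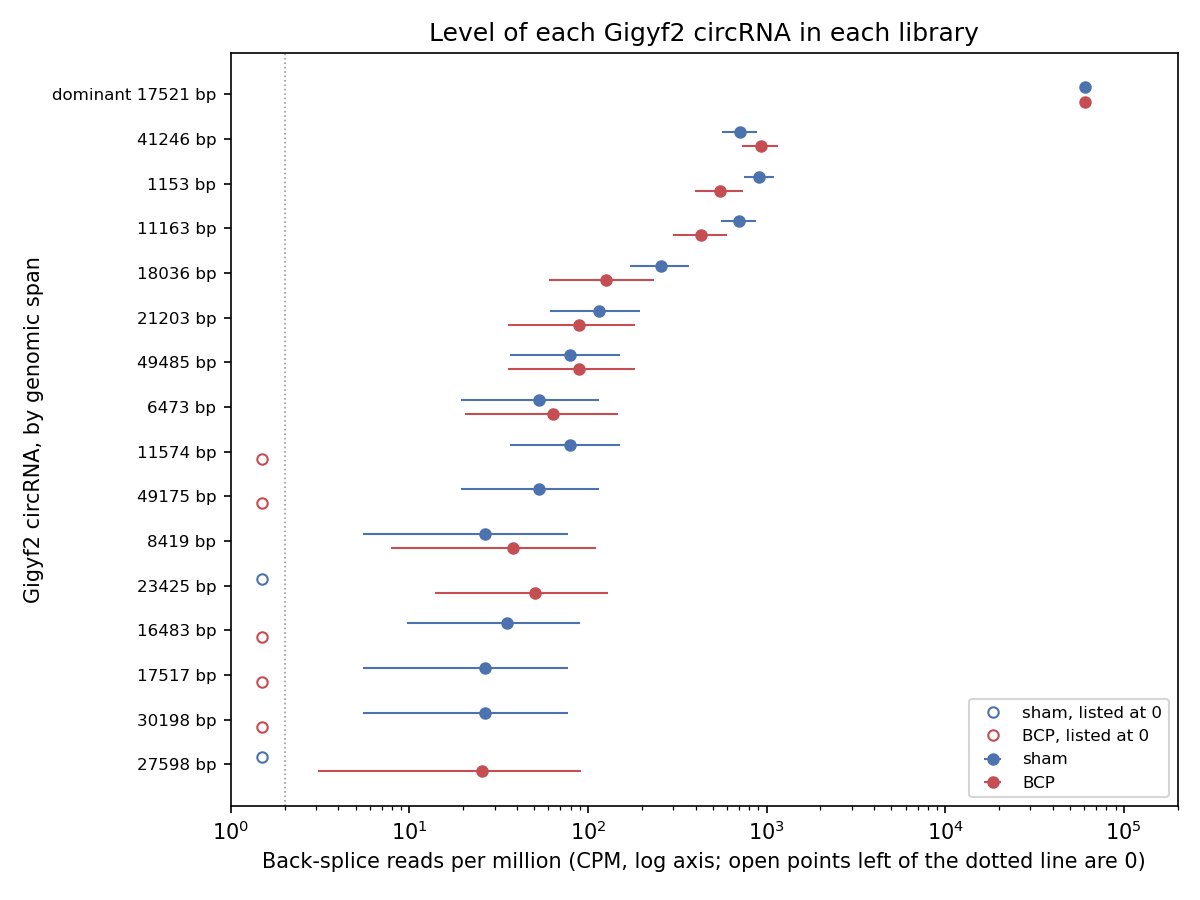
Level of each of the 16 Gigyf2 circRNAs in CPM on a log axis, named by genomic span, with sham in blue and BCP in red. Points are single libraries, bars are exact 95% binomial intervals, and open points mark circRNAs listed at 0. The dominant circRNA stands at 60478 CPM in sham and 60962 CPM in BCP, and all minor circRNAs lie below 1000 CPM.

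The minor circRNAs were tied to the dominant one through its sites. All 16 fell within 97623 bp, from 94431993 to 94529615, and used 8 start sites and 10 end sites, where start and end mean the lower and the higher coordinate. The start of the dominant circRNA, 94463647, was used by 8 circRNAs that held 99.4% of Gigyf2 reads in sham and 99.7% in BCP. Its end, 94481167, was used by 5 circRNAs with 95.5% and 96.5% of the reads. Of the minor circRNAs, 7 shared the start (303 and 171 reads in sham and BCP), 4 shared the end (25 and 14 reads) and 4 shared neither (19 and 3 reads). The start-sharing circRNAs thus held 87.3% of minor reads in sham (83.4 to 90.6) and 91.0% in BCP (85.9 to 94.6).

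**Figure D2:**
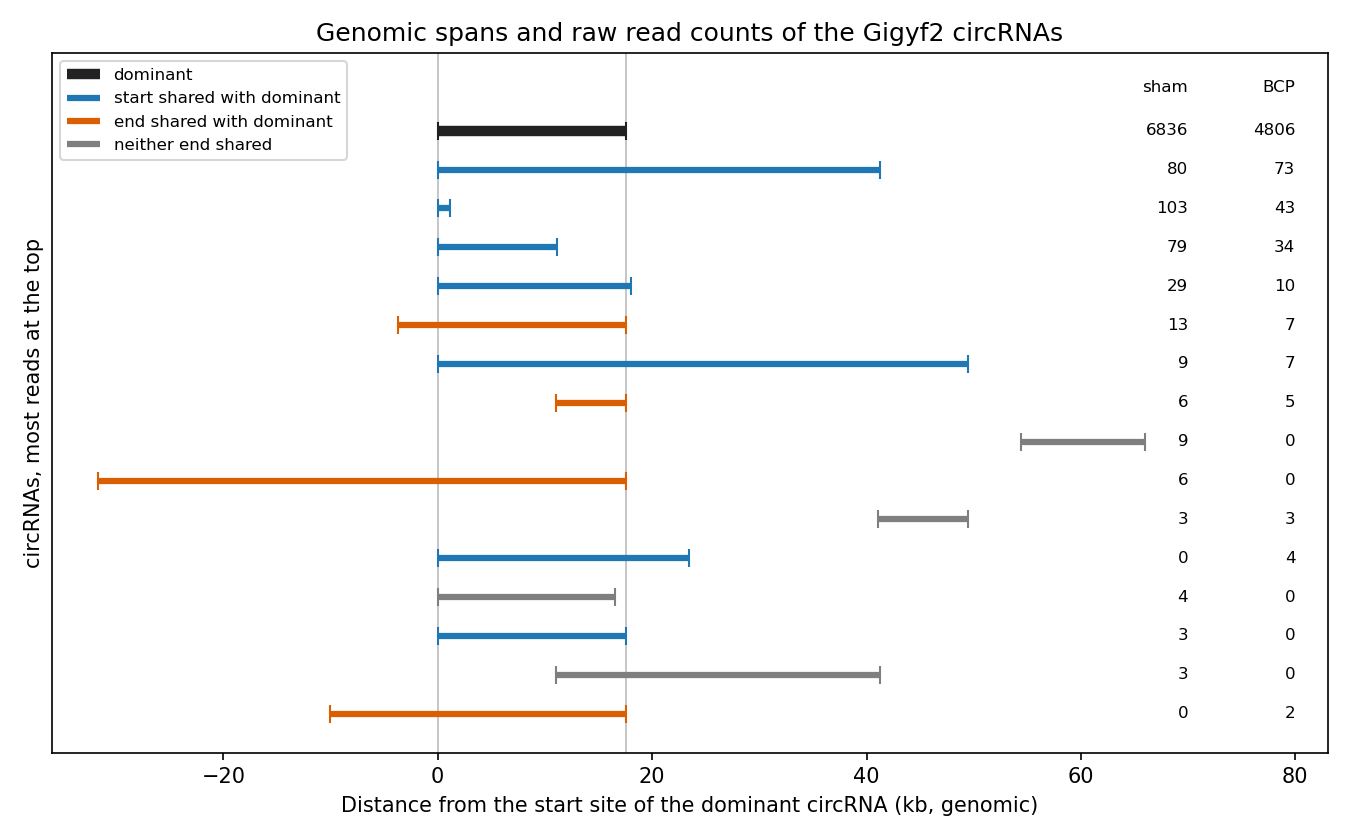
Genomic spans of the 16 Gigyf2 circRNAs by distance in kb from the start site of the dominant circRNA, ordered by reads, with the raw reads of each library at the right. Grey vertical lines mark the sites of the dominant circRNA. Blue spans share its start (7 circRNAs), orange spans its end (4) and grey spans neither (4).

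Among the circRNAs that shared the start, the ends lay on both sides of the dominant end. The circRNA with the most reads over both libraries together ended at 94504892, 23725 bp beyond it, and spanned 41246 bp. Its reads numbered 80 in sham (708 CPM, 561 to 881) and 73 in BCP (926 CPM, 726 to 1164). Its level was higher in BCP, but the ratio of 1.31 had an interval of 0.939 to 1.82. The shortest Gigyf2 circRNA ended at 94464799 and spanned 1153 bp. This one had 103 sham reads (911 CPM, 744 to 1105) and 43 BCP reads (545 CPM, 395 to 735), a ratio of 0.599 (0.409 to 0.862). A circRNA of 11163 bp that ended at 94474809 had 79 sham reads (699 CPM) and 34 BCP reads (431 CPM), a ratio of 0.617 (0.400 to 0.933). Both of these circRNAs were thus lower in BCP with intervals below 1, and neither difference reached 2-fold.

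A circRNA of 18036 bp ended 515 bp beyond the dominant end, at 94481682. With 29 sham reads and 10 BCP reads, its ratio was 0.494 with an interval that reached 1.04. With median-of-ratios scaling the ratio was 0.460 (0.1999 to 0.971), and with TMM it was 0.456 (0.198 to 0.962). The longest Gigyf2 circRNA, of 49485 bp with its end at 94513131, had 9 and 7 reads (ratio 1.12, 0.353 to 3.37). A circRNA that ended at 94487071 was listed in BCP alone with 4 reads. Another ended at 94481163, only 4 bp before the dominant end, and was listed in sham alone with 3 reads.

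The circRNAs that shared the end of the dominant one were rarer. The one that started at 94459965, which is 3682 bp before the dominant start, had 13 sham and 7 BCP reads (ratio 0.772, 0.261 to 2.08). The one that started inside the dominant span, at 94474695, had 6 and 5 reads (ratio 1.19, 0.288 to 4.70). A start at 94431993 gave 6 reads in sham alone, and a start at 94453570 gave 2 reads in BCP alone. Counts of this size leave the direction unsettled for all 4.

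Of the circRNAs with neither site in common with the dominant one, 3 of 4 were listed in sham alone, a listing shared by 36.4% of the table. They ran from 94518042 to 94529615 (9 reads), from 94463700 to 94480182 (4 reads) and from 94474695 to 94504892 (3 reads). The one listed in both libraries ran from 94504713 to 94513131 and had 3 reads in each. Some sites recurred in different pairs. The start at 94474695 and the end at 94474809 bound a stretch of 115 bp, and the start at 94504713 and the end at 94504892 bound 180 bp. Each of these 4 sites was used in a circRNA that reached outside its stretch, and neither stretch was listed as a circRNA itself.

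A circRNA was put to a size rule if it had at least 10 reads over both libraries: a ratio of at least 2-fold in either direction with an interval that excluded 1. Of the 16 Gigyf2 circRNAs 8 had enough reads, and 0 met the rule as higher and 0 as lower in BCP. Over the whole table, 274 of 3502 circRNAs (7.82%) were higher and 260 (7.42%) lower by the rule. Under median-of-ratios and TMM scaling the circRNA of 18036 bp met the rule as lower, and the other 7 did not meet it. All 8 with enough reads were listed in both libraries, while 7.37% of the 3502 were listed in only 1. The 8 that lacked reads were minor circRNAs with 28 reads in sham and 9 in BCP in all. The median log2 ratio of the 8 with enough reads was -0.16, beside 0.02 for all 3502.

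**Figure D3:**
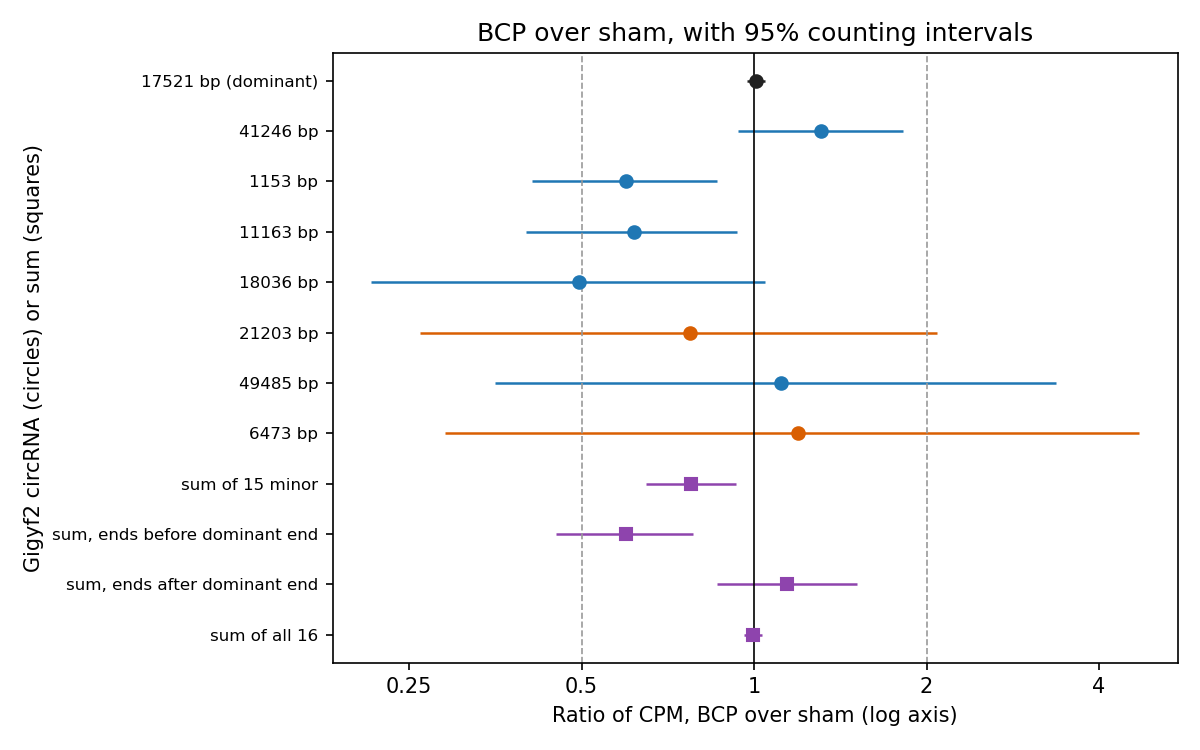
Ratio of CPM, BCP over sham, on a log axis for the 8 Gigyf2 circRNAs with at least 10 reads (circles, by genomic span) and for 4 sums (squares). Bars are exact 95% intervals, the solid line marks equal levels and the dashed lines 2-fold. The dominant circRNA sits at 1.01, the circRNAs of 1153 and 11163 bp at 0.599 and 0.617, and the one of 41246 bp at 1.31.

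Summed over the gene, Gigyf2 circRNAs had 7183 reads in sham (6.35% of the library, 6.21 to 6.50) and 4994 in BCP (6.33%, 6.17 to 6.51), a ratio of 0.997 (0.961 to 1.03). The dominant circRNA held 95.2% of these reads in sham (94.6 to 95.7) and 96.2% in BCP (95.7 to 96.7). The minor circRNAs summed to 3070 CPM in sham against 2385 CPM in BCP, which gives a ratio of 0.777 (0.647 to 0.930). The odds of a dominant against a minor read were 1.30 times as high in BCP as in sham (1.08 to 1.56), a value that needs no scaling between libraries. It does depend on which circRNAs are listed: over those with reads in both libraries it was 1.24 (1.03 to 1.51). Leaving out single circRNAs moved it. With the 1153 bp circRNA left out the odds ratio was 1.18 (0.956 to 1.47), and with the 11163 bp circRNA left out it was 1.22 (0.996 to 1.51). With the 41246 bp circRNA left out it was 1.63 (1.30 to 2.06).

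Start-sharing circRNAs were split by the side of the dominant end on which they ended, a split made after their values were seen. The 3 that ended before it had 185 sham and 77 BCP reads, a ratio of 0.597 (0.451 to 0.783). The 4 that ended after it had 118 and 94 reads, a ratio of 1.14 (0.862 to 1.51). The circRNA of 18036 bp belonged to the latter and was lower in BCP by its point value. The 41246 bp circRNA made up 23.1% of minor reads in sham (18.7 to 27.9) and 38.8% in BCP (31.8 to 46.2), so the most abundant minor circRNA was a different one in each library.

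The spread of other circRNAs gives the scale for these ratios. Among 272 circRNAs with at least 100 reads and reads in both libraries, the quartiles of the ratio were 0.831 and 1.21. In 16.2% of them the interval lay below 1 and in 12.9% above 1. A ratio as low as that of the 1153 bp circRNA was found for 13 of the 272 (4.78%, itself included) and as low as that of the 11163 bp circRNA for 15 (5.51%). A ratio as high as that of the 41246 bp circRNA was found for 48 (17.6%). The dominant circRNA lay near the median of the 272, which was 0.994.

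Dominance of this degree was compared over 291 host genes with at least 3 circRNAs and at least 100 reads. The most abundant circRNA of a host was taken from the reads of both libraries together. In the median host it held 55.8% of the reads in sham and 56.5% in BCP. Its share exceeded that of Gigyf2 in 3 hosts in sham and in 8 in BCP. These 11 hosts had at most 4 circRNAs and 23 minor reads each, whereas Gigyf2 had 16 circRNAs and 535 minor reads. A minimum of 10 circRNAs, added after these shares were computed, leaves out all of those 11 hosts. Among the 98 hosts that meet it none had a larger share than Gigyf2 in either library, an outcome fixed by that minimum. The next was Ssbp2, which encodes a single-stranded DNA binding protein, with 92.3% and 91.6%. The medians of these 98 were 35.2% and 36.0%. Despite the small share, the 535 minor reads of Gigyf2 exceeded those of all but 5 of the 291 hosts, whose median was 77. Gigyf2 also had the most reads of these hosts and was selected on its read counts, so this rank is a description.

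**Figure D4:**
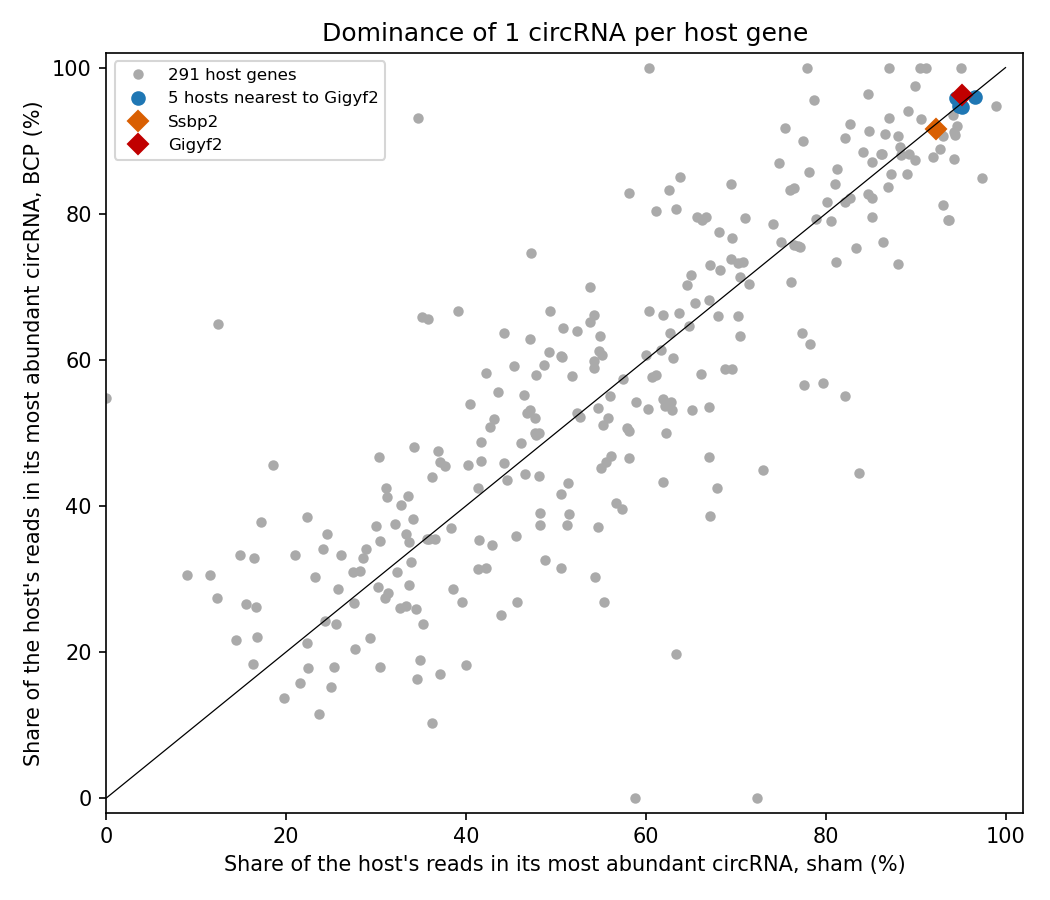
Share of a host gene's circRNA reads held by its most abundant circRNA, in sham (horizontal) and BCP (vertical), in percent. Each of 291 grey points is a host gene, with Gigyf2 in red, Ssbp2 in orange, the 5 hosts nearest to Gigyf2 in blue and the line of equal shares in black. Gigyf2 lies at 95.2% and 96.2%, in the crowded upper corner, against medians of 55.8% and 56.5%.

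The 5 hosts nearest to Gigyf2 in both libraries, by the larger of the differences in this share, were Clip4, Cdyl, AABR07033720.1, Rab6a and Taok1. Clip4 differed by at most 0.725 percentage points and Taok1 by at most 1.69. All had fewer circRNAs than Gigyf2, from 3 to 6. Their reads were fewer as well: Cdyl, a gene for a chromatin corepressor and the deepest of them, had 673 reads in sham and 590 in BCP. The odds ratio of dominant against minor reads was 0.993 in Cdyl (0.582 to 1.70), 1.34 in Clip4 (0.442 to 4.87) and 0.911 in Ssbp2 (0.735 to 1.13), beside 1.30 in Gigyf2. Over the 282 hosts where it could be computed its median was 1.01, its quartiles were 0.691 and 1.44, and 91 hosts had a larger value than Gigyf2. The interval lay above 1 in 29 of the 282 (10.3%) and below 1 in 27 (9.57%). Of the minor reads of Gigyf2, 95.9% came from circRNAs that shared a site with the dominant one. The median over the 291 hosts was 56.5%, and 44 hosts had a larger value than Gigyf2. Among the 5 nearest hosts it was 100% for Clip4 and AABR07033720.1, 89.1% for Cdyl, 84.6% for Rab6a and 0% for Taok1. For Ssbp2 it was 91.4%.

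The direct partners of GIGYF2 in this complex were looked up in the table. No circRNA of Eif4e2, a close neighbour of Gigyf2 by RefSeq (GRCr8 assembly), was listed, nor of Zfp598, the rat gene of ZNF598. No other row of the table overlapped the interval of the Gigyf2 circRNAs or lay within 200000 bp of it. The paralog Gigyf1 hosted 5 circRNAs with 32 reads in sham and 15 in BCP, against 7183 and 4994 of Gigyf2. Of these 5, 2 had enough reads for the size rule. Of the 2, 1 (chromosome 12, 22238126 to 22238269) met the rule as lower, as did 7.42% of all 3502 circRNAs. It had 16 sham reads and an entry of 0 for BCP.

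In a list of 38 symbols of the repressor complex and of mRNA decay, 17 hosts were listed and 19 circRNAs had enough reads, of which 1 was higher, 2 lower and 16 neither. The higher one was of the deadenylase gene Pan3 (18 and 38 reads, ratio 3.03, 1.69 to 5.63). The lower ones were that of Gigyf1 and 1 of the Argonaute gene Ago3 (41 and 10 reads, 2.86-fold lower, 1.41 to 6.40). The most abundant of the list, of the microRNA effector gene Tnrc6b, had 138 and 101 reads (ratio 1.05, 0.804 to 1.37). The median log2 ratio was 0.21, beside 0.02 for all circRNAs tested. The list held 3 calls among 19, a share of 15.8%, near the 15.2% of the whole table.

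Of 23 symbols of cap-binding and scaffold factors, 2 hosts had circRNAs with enough reads, Eif4g3 with 5 and Eif4e3 with 3. Of these 8, 1 was higher and 1 lower (25% called, against 15.2% of all 3502). Their median log2 ratio was -0.16 beside 0.02. These values describe 2 genes and not the whole list. A circRNA of the scaffold gene Eif4g3 had 46 BCP reads with 0 for sham, and 1 of the cap-binding gene Eif4e3 had 50 sham reads with 0 for BCP. Another Eif4e3 circRNA with the same end had 22 sham and 20 BCP reads (ratio 1.30, 0.675 to 2.50). In all, Eif4g3 hosted 14 circRNAs (49 sham and 84 BCP reads) and Eif4e3 hosted 4 (85 and 29). Genes of ribosome collision and quality control had 7 circRNAs with enough reads, 0 higher and 0 lower, against the same 15.2%, and a median of -0.22. Their most abundant, of the ubiquitin ligase gene Rnf14, had 73 and 28 reads (1.82-fold lower, 1.16 to 2.92). In GRB10, insulin and IGF1 receptor signalling, 4 of 21 were higher and 1 lower (23.8% called, against 15.2% of all 3502), with a median of 0.42 beside 0.02. The higher ones included those of the receptor gene Igf1r (11 reads, listed at 0 in sham) and the kinase subunit gene Pik3r1 (9 and 19), and the lower one was of the ubiquitin ligase gene Nedd4 (11 reads, listed at 0 in BCP). With median-of-ratios and TMM scaling 3 of the 21 were higher. Grb10 itself hosted 1 circRNA, with 4 BCP reads and 0 for sham.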

How the data were processed

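The authors deposited raw back-splice counts and a scaled value per circRNA for each library. The columns that the authors headed TPM hold CPM, since each count above 0 scaled to its column total equals them to within 0.001, and 0 is written as 0.001. Per the submitters' processing notes, reads were handled with CASAVA 1.8 and BWA, and the build is rn6. Not given in the sources used here are the version of BWA, the program that called circRNAs with its minimum and annotation, and whether animals were pooled. No rn6 genome was used, so exons, introns and junction sequences were not analysed here. The counts describe RNA that survived RNase R and passed the caller, not linear mRNA.

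Counts were scaled to column totals. Ratios have conditional exact binomial (Clopper-Pearson) intervals, shares have exact binomial (Clopper-Pearson) intervals, and odds ratios are conditional estimates with exact intervals (scipy 1.17.1). Amplified copies of a molecule cannot be told apart here, which makes such intervals too narrow where they occur. No p-value was computed, with 1 library per group. List medians use a pseudocount of 0.5 reads, and no fold is given against 0. For host genes, names of small RNA families and 11 names whose circRNAs spread over more than 3 Mb of a chromosome were dropped, Dcp2 among them. This left 10004 circRNAs with a single host, and all 16 members had Gigyf2 alone, though 3 rows also carried small RNA family names. Of 3865 host names, 3744 matched a RefSeq symbol or synonym of the GRCr8 assembly, used for names and neighbours only. The size rule was tested on simulated data before use, which does not measure the spread between replicate libraries.

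The members, lists and comparisons were chosen with earlier results of these data known. The text names every Gigyf2 circRNA, Ssbp2, the 5 nearest hosts, and of each list the circRNAs that met the rule and those with the most reads. Not all of these are reported here. The hosts of the 10 most abundant circRNAs are named under the other observations. Alternatives were DESeq2 1.42.0 median-of-ratios and edgeR 4.0.16 TMM scaling, other read minimums, circRNAs with reads in both libraries, and rows without a second name. Leaving out each minor circRNA in turn, and rescaling the single circRNAs, was added after the data were seen.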

Additional observations from a re-analysis of the deposited data

How the results depend on the processing

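The ratio of the dominant circRNA, 1.01, became 0.937 with median-of-ratios scaling, 0.929 with TMM and 0.967 over circRNAs with reads in both libraries. The ratio of all Gigyf2 circRNAs, 0.997, became 0.927, 0.919 and 0.958 under the same changes. The share of the library in the dominant circRNA, 6.05% in sham and 6.10% in BCP, became 7.19% and 6.96% over circRNAs with reads in both libraries, and 6.83% and 7.08% with counts under 5 set to 0, since both remove reads of other circRNAs from the total. Its share of Gigyf2 reads in sham, 95.2%, became 95.7% over rows with no other name. The summed minor circRNAs stayed below 1 under the 5 changes of scaling or reads, at 0.716 to 0.790. Leaving out each of the 15 minor circRNAs in turn gave 0.618 (without that of 41246 bp) to 0.852 (without that of 1153 bp) for this ratio. The same gave 1.18 to 1.63 for the odds ratio of dominant against minor reads (1.63 without that of 41246 bp), and the interval held 1 in 2 of the 15 cases for each. The size rule over the table gave 139 higher and 115 lower with at least 20 reads, and 690 and 561 with no read minimum, against 274 and 260. With median-of-ratios scaling it gave 231 and 306. The numbers of Gigyf2 circRNAs listed, 14 in sham and 11 in BCP, were 10 and 8 with at least 5 reads. Low read counts limit the minor circRNAs: 8 of 15 had under 10 reads over both libraries, as did 69.8% of the whole table. No paired analysis was possible because each group has 1 library.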

Other observations

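The circRNA that ended 4 bp before the dominant end of Gigyf2 had a counterpart in 2 other hosts among the 10 most abundant circRNAs of the table. Within 10 bp of 1 site, and with the other site the same, the dominant circRNA of Gigyf2 had 1 such neighbour with 3 sham reads and 0 for BCP. That of Ssbp2 had 1 with 14 and 6 reads, and that of the transcription factor gene Elf2 had 1 with 29 and 25 reads. The other 7 had none listed. For every 1000 reads of the dominant circRNA, circRNAs that shared a site with it numbered 48.0 in sham and 38.5 in BCP for Gigyf2. The same quantity was 74.6 and 88.4 for Ssbp2, 46.9 and 48.2 for Cdyl, and 369 and 390 for Elf2.
The share of host reads in the dominant circRNA varied among the hosts of these 10. In sham it was 67.0% for Gtf2i, 70.5% for Elf2, 79.0% for Crebrf, 82.7% for AABR07060133.1, 94.3% for Tmeff1, 94.9% for Cdyl and 99.0% for Zfp609, which had 2 circRNAs. In BCP these shares were 68.2%, 71.3%, 79.3%, 82.2%, 90.8%, 94.9% and 100%, in the same order. The remaining circRNA of the 10, on chromosome 3, had no single host.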
